A study of Mus musculus with 16 samples.

Results

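The TLDc domain genes Tldc2, Oxr1, Ncoa7 and Tbc1d24 were followed in whole mouse kidneys with and without deletion of Hes1. They are 4 of the 28971 genes in the count table and were found there by symbol, and all 4 passed the filter on low counts. They were chosen by family membership, starting from Tldc2, whose difference between the groups was already known from these libraries. The values of Tldc2 between the groups are therefore given as a description, without a test. The fifth gene of the family, Meak7 (listed as Tldc1 in the table), was added for completeness.

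The TLDc domain is a protein module that binds the V-ATPase, the rotary pump that uses ATP to move protons across membranes. The pump has a cytosolic V1 sector, which hydrolyses ATP, and a V0 sector in the membrane, which carries the protons. Both sectors can come apart and reassemble. In the kidney the pump is most abundant in intercalated cells of the collecting duct, which secrete acid or base. OXR1 is known for protection against oxidative damage, NCOA7 as a nuclear receptor coactivator and a partner of the pump in intercalated cells. TBC1D24 joins the module to a TBC domain and is known for its part in vesicle traffic in neurons, and MEAK7 is known as an activator of mTOR signalling.

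RNA came from Hes1 cKO mice, whose genotype combined Pax8-rtTA and TRE-Cre with 2 floxed alleles of Hes1, and from wild type littermates, called control. In the mutants, doxycycline turns on Cre in cells with Pax8 promoter activity, mainly tubule epithelium, while the RNA came from the whole organ. Mice of both groups drank doxycycline (1 mg/mL, with 5% sucrose) for 1 week from an age of 3 weeks. The table holds 3 libraries named as mutant (Hes1 cKO 1 to 3, or mutants 1 to 3) and 4 named as wild type (controls 1 to 4). The labels list males and females in both groups, but the column names give no sex. Each name holds an identifier that the labels do not explain and a number that runs through both groups, so columns were assigned to a group only, and the numbers used here only name columns. Whether each column is a separate animal is not stated, and p-values measure the spread between these libraries.

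Libraries held 16973931 to 20420422 counts. Hes1 was at 17.2 to 19.8 CPM (counts for every 1000000 of the TMM-scaled library size) in Hes1 cKO and at 42.8 to 67.6 CPM in control, which fits the group names. Genes of the proximal tubule and thick ascending limb were abundant in every library, with summed levels of at least 9270 and 6580 CPM. Adrenal genes (14 listed) summed to 1344 CPM in Hes1 cKO 3 and 1014 CPM in control 1, to 264 CPM in control 2 and 57.1 CPM in Hes1 cKO 1, and to 3.81 to 6.66 CPM in the other 3 libraries. Xist was at 333 to 367 CPM in mutant 3 and controls 3 and 4, and the highest value elsewhere was 0.371 CPM. Values without mutant 3 and control 1, the libraries highest in adrenal genes, are given for each family gene.

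Tldc2 (ENSMUSG00000074628) lies on the plus strand of chromosome 2, at 157087055 to 157096482 in GRCm38. It is the smallest gene of the family, with 641 bases of exon in 2 protein-coding transcripts (GENCODE M21). Oxr1 (ENSMUSG00000022307) spans chromosome 15 from 41447482 to 41861048 on the plus strand, with 16 transcripts and 7136 bases of exon. Ncoa7 (ENSMUSG00000039697) spans chromosome 10 from 30628999 to 30803326 on the minus strand, with 12 transcripts and 10565 bases of exon. Tbc1d24 (ENSMUSG00000036473) lies on the minus strand of chromosome 17, at 24175431 to 24205562, with 15 transcripts and 8557 bases of exon. Meak7 (ENSMUSG00000034105) lies on the minus strand of chromosome 8, at 119760076 to 119778416, with 3 transcripts. The counts are per gene, so long and short forms of Oxr1 and Ncoa7, some of which hold little more than the TLDc domain, cannot be told apart.

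Promoter sequences (RefSeq, GRCm38.p6) were found for 3 of the 5 genes: Tldc2, Ncoa7 and Tbc1d24. The 250 bases before the start are shown for Tldc2 (chr2:157086760-157087009, plus strand) and for the first listed start of Tbc1d24 (chr17:24205563-24205812, minus strand), because these 2 genes had higher levels in every Hes1 cKO library. The Tldc2 window lies before the start that RefSeq gives for the promoter entry but inside the RefSeq span of the gene, which begins further upstream at 157076627. Capitals mark matches, on either strand, to the N-box CACNAG and the class C site CACGNG, both known as sites of Hes family repressors, or to the forkhead core GTAAACA. An N-box and a class C site can be the same letters (CACGAG).

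Tldc2: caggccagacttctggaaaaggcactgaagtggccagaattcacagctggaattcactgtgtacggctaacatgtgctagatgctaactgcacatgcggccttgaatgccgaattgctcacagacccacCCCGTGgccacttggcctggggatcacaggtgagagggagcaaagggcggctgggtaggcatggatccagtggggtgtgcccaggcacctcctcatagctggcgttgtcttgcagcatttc
Tbc1d24: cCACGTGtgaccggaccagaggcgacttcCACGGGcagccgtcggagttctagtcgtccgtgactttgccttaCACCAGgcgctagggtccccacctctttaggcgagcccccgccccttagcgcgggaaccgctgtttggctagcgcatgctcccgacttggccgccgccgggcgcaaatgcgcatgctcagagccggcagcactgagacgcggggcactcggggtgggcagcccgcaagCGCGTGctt

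The Tldc2 promoter held 1 class C match, CCCGTG, which is CACGGG on the other strand and begins 121 bases before the start. The Tbc1d24 promoter held 3 class C matches and 1 N-box, beginning 249, 221, 9 and 177 bases before the start. Neither held the forkhead core. Of the 32841 promoter entries searched in the same way, 23.5% held a class C match, 36.7% an N-box and 3.17% the forkhead core, so these matches are common letters and describe the sequence only. At its second start, Tbc1d24 held none of the 3 motifs. Ncoa7 held none at its first listed start and 1 N-box at its other start.

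Tldc2 was several times more abundant in Hes1 cKO than in control kidneys. Its level was 53.5, 36.0 and 36.8 CPM in mutants 1 to 3, from 1012, 728 and 626 reads. In controls 1 to 4 it was 6.83, 7.26, 8.89 and 9.88 CPM, from 119, 137, 162 and 181 reads. The groups lay far apart: the lowest Hes1 cKO library was 3.64-fold above the highest control, and Hes1 cKO 1 stood above the other 2 mutants. The means were 42.1 ± 9.90 CPM (SD, n = 3) and 8.21 ± 1.42 CPM (SD, n = 4). In the fit they differed by 2.36 ± 0.18 (SE) on the log2 scale, or 5.12-fold. This was the 11th largest rise among 15615 tested genes. It ranged from 2.15 (without Hes1 cKO 1) to 2.46 (without Hes1 cKO 2 or control 4) on the log2 scale when a library was left out. Without the 2 libraries highest in adrenal genes it was 2.37. In whole-kidney RNA, more cells of a type and more RNA per cell cannot be told apart.

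**Figure D1:**
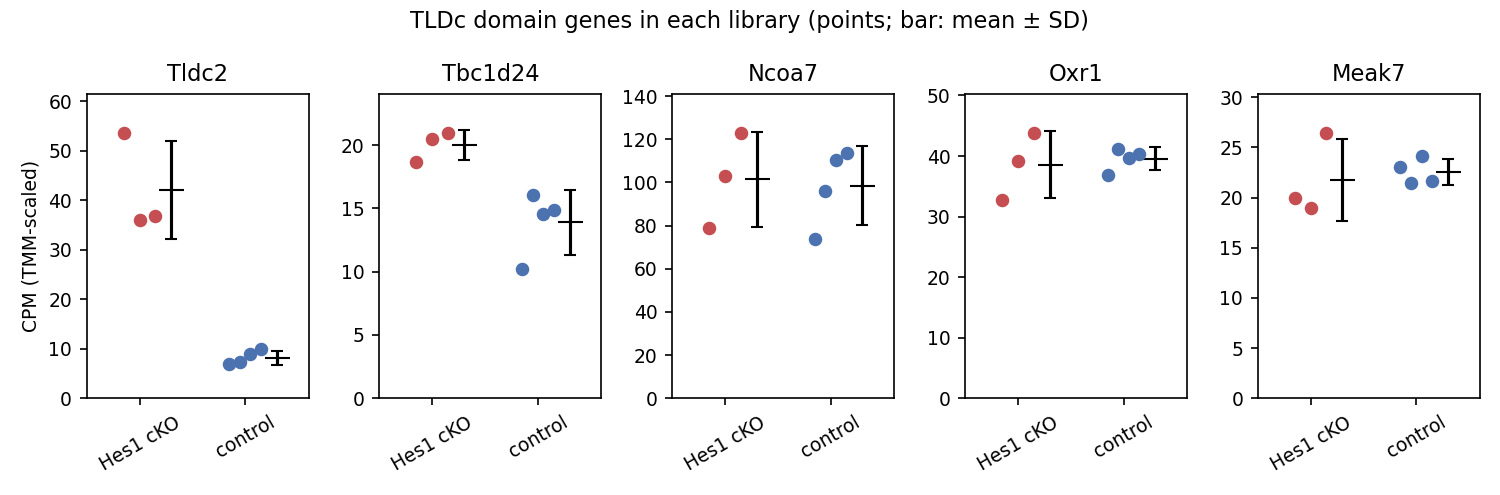
Levels of the 5 TLDc domain genes (CPM, vertical axes starting at 0) in 3 Hes1 cKO (red) and 4 control (blue) libraries, with the mean and SD as black bars. Tldc2 sits at 36.0 to 53.5 CPM in Hes1 cKO and 6.83 to 9.88 CPM in control, the groups of Tbc1d24 also lie apart, and those of Ncoa7, Oxr1 and Meak7 overlap.

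Tbc1d24 was the other family member whose groups did not overlap, with a much smaller difference. Its level was 18.7, 20.5 and 20.9 CPM in mutants 1 to 3 and 10.2, 16.1, 14.5 and 14.9 CPM in controls 1 to 4. The lowest mutant library was only 1.16-fold above the highest control, and control 1 lay below the other controls. The means were 20.03 ± 1.20 CPM (SD, n = 3) and 13.9 ± 2.57 CPM (SD, n = 4), apart by 0.52 ± 0.15 (SE) on the log2 scale. The gene was not called, with an adjusted p of 0.522 (edgeR quasi-likelihood, Benjamini-Hochberg over all tested genes). Over all alternatives its edgeR, limma-voom and DESeq2 adjusted p ranged from 0.175 (DESeq2) to 0.9997, and without control 1 its log2 fold change was 0.40. Without the 2 libraries highest in adrenal genes it was 0.37.

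Ncoa7, the family member with the most reads, varied as much within the groups as between them. It was at 78.7, 103 and 123 CPM in mutants 1 to 3 and at 73.8, 95.9, 111 and 114 CPM in controls 1 to 4. The groups overlapped almost fully, and the first-named library of each group was its lowest. The means were 101.5 ± 22.1 CPM (SD, n = 3) and 98.5 ± 18.2 CPM (SD, n = 4), with a log2 ratio of 0.04 ± 0.18 (SE; edgeR, adjusted p 0.993). The sign of so small a value turned when Hes1 cKO 3 (-0.12), control 1 (-0.07) or both (-0.23) were left out, and it was not called in any of these fits.

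Oxr1 was steady across the libraries, most of all among the controls. It was at 32.7, 39.1 and 43.8 CPM in mutants 1 to 3 and at 36.8, 41.2, 39.7 and 40.4 CPM in controls 1 to 4, a coefficient of variation of 4.82% among the controls and 14.4% among the mutants. The mutant libraries lay on both sides of the control range. The log2 ratio was -0.04 ± 0.11 (SE; edgeR, adjusted p 0.993), and it was 0.065 without Hes1 cKO 1 and -0.17 without the 2 libraries highest in adrenal genes. Meak7 was at 19.9, 18.9 and 26.4 CPM in mutants 1 to 3 and at 23.0, 21.4, 24.1 and 21.6 CPM in controls 1 to 4. Its groups overlapped, with a log2 ratio of -0.05 ± 0.13 (SE; edgeR, adjusted p 0.991), and its sign turned without Hes1 cKO 1 (0.004) or Hes1 cKO 2 (0.039). Without the 2 libraries highest in adrenal genes the Meak7 value was -0.20. An adjusted p above the threshold does not show that these genes were equal in the groups. With an SE of 0.11 to 0.18, changes several times the SE could also go uncalled. Tbc1d24, at 0.52 ± 0.15 (SE), was not called, nor was Aqp6, a gene of intercalated cells, at 0.685 ± 0.122 (SE; edgeR, adjusted p 0.0734).

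Of the 4 members, 1 (Tldc2, on which they were chosen) had an adjusted p under 0.05, against 0.339% of all tested genes (53 of 15615), and nothing is read from that count. Of all tested genes, 3.71% had every Hes1 cKO library above every control, as Tldc2 and Tbc1d24 had, and 3.29% had every one below, as no family member had. The median log2 fold change was 0.04 over the 5 family genes and -0.0064 over all tested genes.

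Set beside each other per length, Tldc2 stood further above the other family genes in the mutant kidneys than in control. On the scale of CPM per kilobase of exon, its level was 83.5, 56.2 and 57.4 in mutants 1 to 3 and 10.7, 11.3, 13.9 and 15.4 in controls 1 to 4. In Hes1 cKO its mean of 65.7 ± 15.4 was followed by Ncoa7 (9.61 ± 2.09), Oxr1 (5.40 ± 0.775), Meak7 (5.27 ± 0.981) and Tbc1d24 (2.34 ± 0.140; SD, n = 3 for each). In control the same order ran from Tldc2 (12.8 ± 2.22) through Ncoa7 (9.32 ± 1.72), Oxr1 (5.54 ± 0.267) and Meak7 (5.46 ± 0.308) to Tbc1d24 (1.63 ± 0.300; SD, n = 4 for each). On this length, Oxr1 and Meak7 lay within their spread in both groups.

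The first place of Tldc2 in control rests on the gene length used. With the longest protein-coding transcript of each gene in place of all its exons, Ncoa7 (14.0 ± 2.58) came before Tldc2 (12.9 ± 2.23) in control, within their spread. On that length the control levels of Oxr1 (8.60 ± 0.414) and Meak7 (7.31 ± 0.412; SD, n = 4) lay further apart than their spread, so this order rests on the length too. In Hes1 cKO, Tldc2 (65.9 ± 15.5) still lay above Ncoa7 (14.4 ± 3.13; CPM per kilobase, SD, n = 3). RefSeq ends Tldc2 466 bases beyond GENCODE, so the length behind its counts is uncertain. On the length of all exons, Tldc2 took 81.4%, 71.7% and 68.3% of the summed level of the 5 genes in mutants 1 to 3. In the controls it took 34.0% to 39.7%. These shares depend on the length used. The sum itself was 78.4 to 103 in Hes1 cKO and 29.6 to 38.8 in control, while the other 4 genes kept levels close to those above.

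**Figure D2:**
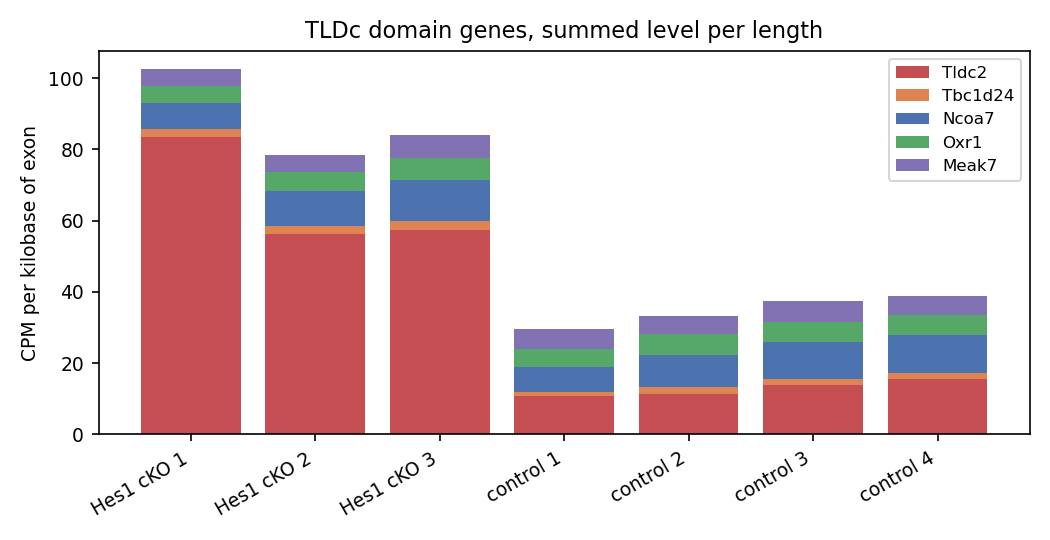
Summed level of the 5 TLDc domain genes in each library (CPM per kilobase of all exons joined, axis from 0), with a colour for each gene. The bars reach 78.4 to 103 in Hes1 cKO and 29.6 to 38.8 in control, and the red Tldc2 part makes up 68.3% to 81.4% of the former.

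Tldc2 was next read against genes of intercalated cells, because the summed level of those listed was also higher in the mutants. The list of 18 genes summed to 2780 to 2911 CPM in Hes1 cKO and 1743 to 1961 CPM in control. Of its 18 tested genes, 10 had an adjusted p under 0.05 and were higher and none lower, against 0.339% of all tested genes (50 higher, 3 lower). The median log2 fold change of the list was 0.88, that of all tested genes -0.0064, and none of the 18 was at 0 in all libraries. Of the 18, 15 had values above 0, against 7564 of the 15615 tested genes. Rhbg (-0.47), Rhcg (-0.18) and Car2 (-0.17) lay below 0 and were not called, so the rise covered only part of the list. The list was written with earlier results of these data known. For each 100 CPM of this list, Tldc2 had 1.93, 1.24 and 1.29 CPM in mutants 1 to 3 and 0.392, 0.398, 0.453 and 0.527 CPM in controls 1 to 4. The Tldc2 level thus differed by more than the list's sum did (3.36-fold for the ratio of means, after 1.54-fold for the sum). Abundant genes weigh most in that sum. Car2 had means of 400 CPM in Hes1 cKO and 451 CPM in control, and Atp6v0a4 476 and 422 CPM. Hmx2, also on the list, differed by 2.44 on the log2 scale, against 2.36 for Tldc2. Principal cell genes (11 listed) summed to 1039 to 1531 CPM in Hes1 cKO and 1603 to 2312 CPM in control. Of the 10 tested, only Hsd11b2 was called (lower, edgeR adjusted p 0.0104), against 0.339% of all tested genes. Their median log2 fold change was -0.31, and 2 of the 10 had values above 0. Summed levels of endothelial (215 to 278 against 251 to 267 CPM) and immune genes (67.6 to 90.9 against 65.7 to 90.6 CPM) overlapped between the groups. The part of cell numbers in the level of Tldc2 was not tested.

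How far Tldc2 stood out depended on the gene it was set against. Against Foxi1, the transcription factor that specifies intercalated cells, the ratio of CPM was 0.401, 0.305 and 0.342 in mutants 1 to 3 and 0.258, 0.182, 0.271 and 0.312 in controls 1 to 4. These groups overlapped, with means 1.37-fold apart. Against Slc26a4, which encodes the chloride and bicarbonate exchanger pendrin of type B cells, it was 0.161 to 0.279 and 0.0777 to 0.150, with means 1.66-fold apart and the groups just separate. Against the pump subunit gene Atp6v1b1 the means lay 3.09-fold apart. Against Slc4a1, the anion exchanger of type A cells, they lay 3.73-fold apart, and against the subunit gene Atp6v0a4 4.62-fold. In the latter 3 ratios every mutant library lay well above every control. Ratios of CPM between genes are not levels per length, and only their change between libraries is compared.

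**Figure D3:**
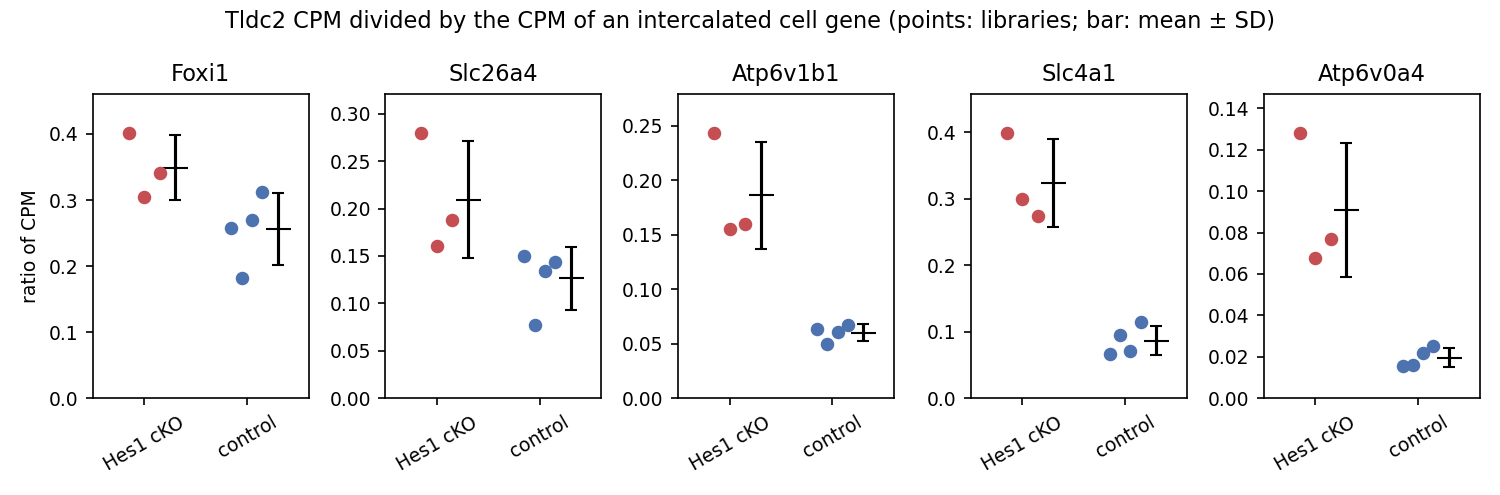
Tldc2 CPM divided by the CPM of each of 5 intercalated cell genes, in 3 Hes1 cKO (red) and 4 control (blue) libraries, with mean and SD (axes from 0). The groups overlap for Foxi1 (0.305 to 0.401 against 0.182 to 0.312) and lie furthest apart for Atp6v0a4, with means 4.62-fold apart.

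Genes with levels most like those of Tldc2 were sought among 14144 others with a mean of at least 1 CPM. Likeness was the root mean square difference of log2(CPM + 1), centred on each gene's mean over the 7 libraries, so a smaller value means a closer match. The closest was Hmx2 (0.186), a homeobox transcription factor gene, followed by the transporter gene Slc4a9 (0.258), Gm47795 (0.273), 4930469K13Rik (0.282) and Foxi1 (0.291). For scale, Tldc2 itself varied over the libraries with an SD of 1.21 on this axis. Hmx2 was at 92.0, 83.7 and 59.3 CPM in mutants 1 to 3 and at 11.6, 14.9, 15.3 and 15.8 CPM in controls 1 to 4. It shared the highest library (Hes1 cKO 1) and the lowest (control 1) with Tldc2. Slc4a9 was at 384, 356 and 281 CPM and at 77.2, 92.4, 104 and 122 CPM. Like Foxi1, it was also highest in Hes1 cKO 1 and lowest in control 1. 4930469K13Rik was at 12.5, 7.47 and 11.7 CPM in Hes1 cKO and 1.72 to 2.62 CPM in control, and Gm47795 at 7.71 to 8.09 and 0.631 to 1.59 CPM. Much of this likeness is the difference between the groups, which these genes share.

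**Figure D4:**
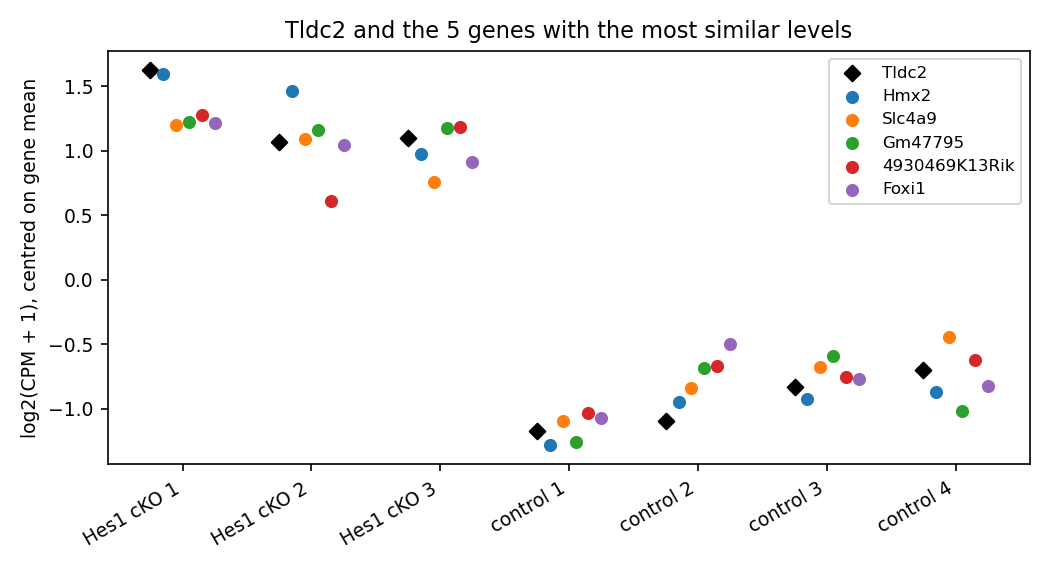
Levels of Tldc2 (black diamonds) and of the 5 genes most like it (coloured points) in each library, as log2(CPM + 1) centred on the gene's mean over all 7 libraries. All 6 genes lie above 0 in the 3 Hes1 cKO libraries and below 0 in the 4 controls. Tldc2, Hmx2, Slc4a9, 4930469K13Rik and Foxi1 are highest in Hes1 cKO 1.

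The other members resembled quite different genes. Oxr1 was closest to Ubb (0.0222), a polyubiquitin gene, Tm9sf2 (0.0273) and the kinase gene Mapk9 (0.0317). Ncoa7 was closest to Bbs12 (0.0452), Klhl24 (0.0505) and Pm20d2 (0.0536), each of which was, within both groups, lowest in library 1. Tbc1d24 was closest to Smad9 (0.0786), a transcription factor gene of BMP signalling, Dnal1 (0.0918) and Vps13c (0.101). Like Tbc1d24, these 3 genes were higher in every Hes1 cKO library, as were 3.71% of all tested genes. Their log2 fold changes were 0.60, 0.53 and 0.55, and none was called (edgeR adjusted p 0.497, 0.287 and 0.148). All these genes were picked for levels like those of the member, so shared patterns follow from the choice. Oxr1, Ncoa7 and Tbc1d24 vary little over the libraries (SD 0.130, 0.272 and 0.337), which makes small differences easy to reach.

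The neighbours of the members were read next, since reads of adjoining genes can be counted together. Soga1, which encodes a microtubule-associated protein, lies to the left of Tldc2 on the opposite strand, 7800 bases away by GENCODE. It was also higher in Hes1 cKO, at 64.4, 58.2 and 47.1 CPM in mutants 1 to 3 against 27.4, 21.8, 22.9 and 27.0 CPM in controls 1 to 4. The groups did not overlap, and the order within the mutants began with Hes1 cKO 1, as for Tldc2. Its log2 ratio was 1.19 ± 0.13 (SE; edgeR, adjusted p 0.00447), and it was called in all 16 alternatives, with adjusted p-values of up to 0.0369. The longer RefSeq span of Tldc2 overlaps the RefSeq span of Soga1 by 3041 bases. Whether reads were counted by strand is not stated, so reads from the overlap could not be assigned, and their part in either level was not tested. Samhd1, a dNTP hydrolase gene 1050 bases to the right of Tldc2, was at 23.8, 25.4 and 24.1 CPM against 28.7, 25.7, 24.7 and 28.4 CPM and overlapped between the groups (log2 ratio -0.14 ± 0.10 SE; edgeR, adjusted p 0.942).

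Tbc1d24 has a gene of the pump itself as its downstream neighbour. Atp6v0c, which encodes the proteolipid subunit of the proton-carrying ring, lies 5728 bases away on the same strand. It was at 228, 202 and 202 CPM in mutants 1 to 3 and at 144, 194, 123 and 112 CPM in controls 1 to 4. The groups did not overlap, though control 2 came close, and the gene was not called (log2 ratio 0.56 ± 0.17 SE; edgeR, adjusted p 0.583). Its adjusted p ranged from 0.0535 to 0.9997 over the alternatives. Tbc1d24 shares 89 exon bases with Ntn3, which was at no more than 1.20 CPM in any library. Ncoa7 shares 78 exon bases with Hint3, which was at 19.5 to 26.7 CPM.

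The V-ATPase genes, the known partners of the family, were taken from lists of V1 subunits, V0 subunits, accessory and assembly factors, and the RAVE complex, which reassembles the pump. Of 32 tested genes (33 listed), 4 were called higher in Hes1 cKO and none lower, against 0.339% of all tested genes called. The 4 were Atp6v1c2, Atp6v0d2, Atp6v1g3 and Atp6v1b1, all of them subunit forms known from intercalated cells and all also on the intercalated cell list. Atp6v0a4, the other pump gene on that list, was not called (log2 fold change 0.17, edgeR adjusted p 0.934). Its groups overlapped. The median log2 fold change of the 32 genes was 0.04, close to the -0.0064 of all tested genes. In 6 of the 32 every Hes1 cKO library lay above every control, against 3.71% of all tested genes: the 4 called, Atp6v0c and Atp6ap1. In 0 of the 32 every one lay below, against 3.29%. The lists, too, were written with earlier results of these data known.

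Atp6v1c2, a V1 stalk subunit gene, was at 65.6, 63.0 and 63.6 CPM in mutants 1 to 3 and at 19.4, 24.2, 29.1 and 26.9 CPM in controls 1 to 4. Its log2 ratio was 1.36 ± 0.13 (SE; edgeR, adjusted p 0.00316). Atp6v0d2, a V0 subunit gene, rose by 1.25 on the log2 scale (SE 0.16, edgeR adjusted p 0.0113), and leaving out mutant 1 (0.0533) or mutant 2 (0.0787) ended that call. Atp6v1g3, a V1 stalk subunit gene, rose by 1.02 (SE 0.12, edgeR adjusted p 0.00652). Atp6v1b1, the B subunit form of the V1 head in intercalated cells, rose by 0.73 (SE 0.12, edgeR adjusted p 0.0369), and by 0.63 without the 2 libraries highest in adrenal genes (edgeR adjusted p 0.0490). That call did not survive leaving out Hes1 cKO 1, 2 or 3 or control 2, 3 or 4 (edgeR adjusted p 0.0733 to 0.209). All 4 rises were smaller than the value of Tldc2, 2.36; the differences between them were not tested.

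The subunit forms found in most cells were not called. Of all uncalled subunit genes, Atp6v0c had the largest log2 fold change (0.56). The counterparts Atp6v1c1 (log2 fold change -0.09), Atp6v0d1 (-0.08), Atp6v1g1 (-0.09) and Atp6v1b2 (-0.08) had values near 0 (edgeR adjusted p 0.969 to 0.974). Of the genes not called, Atp6v1g1, Atp6v1f and Atp6v1a had the highest levels per length, with means over all libraries of 184, 165.5 and 122.5 CPM per kilobase. Atp6v1a, the catalytic subunit, had a log2 ratio of 0.19 ± 0.11 (SE; edgeR, adjusted p 0.927), and Atp6v1f one of -0.04 (SE 0.10, edgeR adjusted p 0.990). None of the 6 accessory and assembly genes and none of the 4 RAVE genes was called by edgeR, nor had any an unadjusted p under 0.05. Both limma-voom and DESeq2 called 0 of these 10, since the 4 genes they called over all pump lists were the 4 named above. Their medians were both 0.03, and the largest values were 0.24 for Atp6ap2 and 0.18 for Dmxl1.

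**Figure D5:**
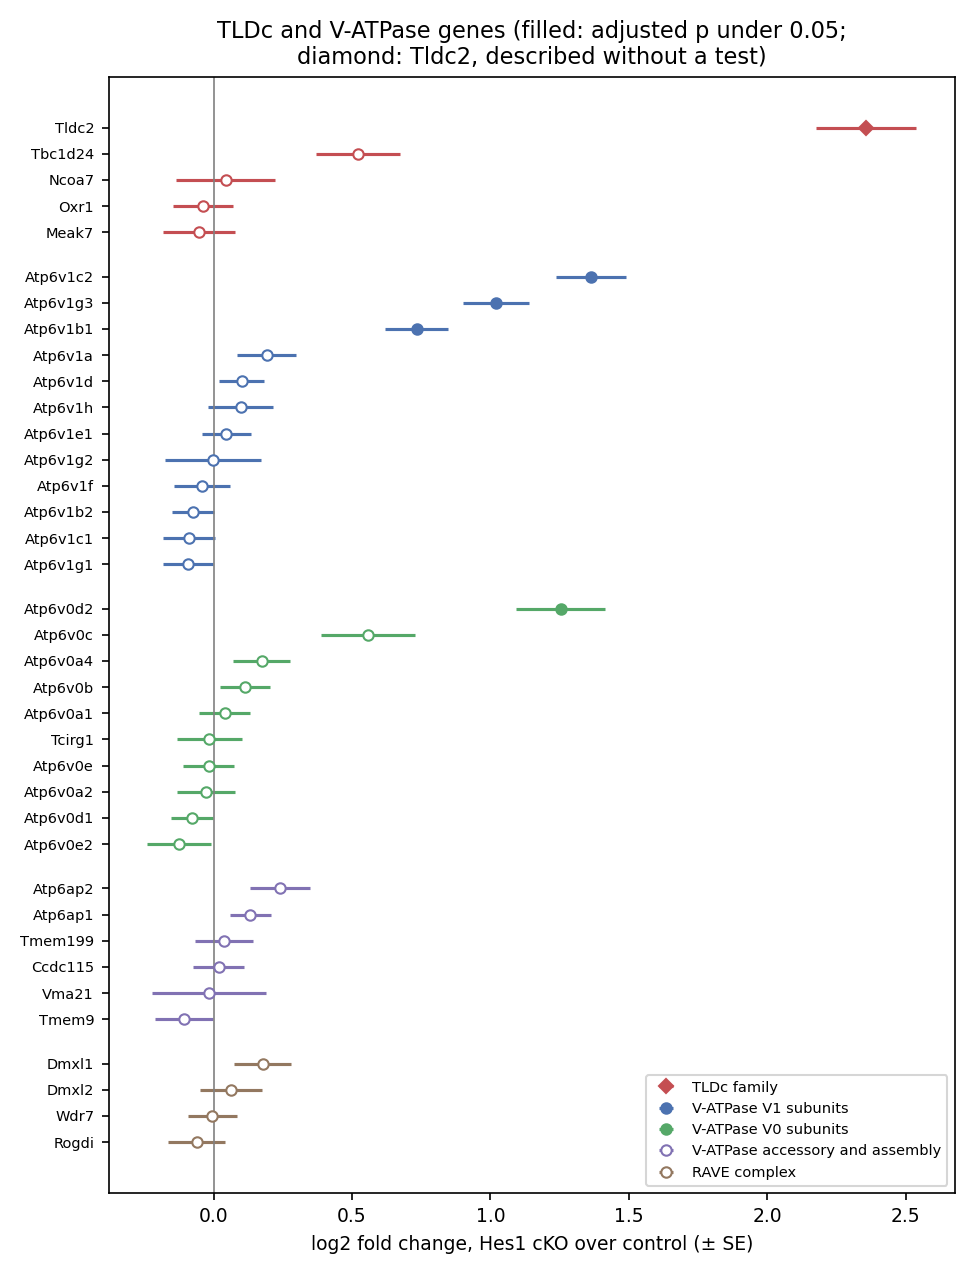
Log2 fold changes (Hes1 cKO over control, ± SE) of the 5 TLDc domain genes and the 32 tested V-ATPase, accessory, assembly and RAVE genes. Filled points have an edgeR adjusted p under 0.05. The Tldc2 diamond is also filled, but the set was chosen on Tldc2, so nothing is read from its fill. Among the pump genes, Atp6v1c2, Atp6v0d2, Atp6v1g3 and Atp6v1b1 are filled and lie from 0.73 to 1.36, while most others lie near 0.

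Other lists followed what the members are known for. Antioxidant genes, read because of Oxr1, and interferon response genes, read because a short form of Ncoa7 is induced by interferon, held 34 tested genes. None was called by edgeR's quasi-likelihood test, none had an unadjusted p under 0.05, and DESeq2 and limma-voom also called 0. Over all 15615 tested genes, edgeR called 0.339%, and 929 had an unadjusted p under 0.05, so a count of 0 calls among 34 genes is near the background. The antioxidant list had a median log2 fold change of -0.07, with summed levels of 28990 to 34720 CPM in Hes1 cKO and 29590 to 34520 CPM in control. Of its 20 genes, 3 (Sod1, Prdx1 and Txn1) had every Hes1 cKO library below every control, against 3.29% of all tested genes. In 1 (Srxn1) every one lay above, against 3.71%. These shares were not tested. The interferon list had a median of 0.10, with summed levels of 140 to 162 CPM in Hes1 cKO and 137 to 175 CPM in control.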

How the data were processed

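The authors deposited whole-number counts per gene, not normalized; per the submitters' processing notes, FastQC, STAR and DESeq2 and the builds mm10 and GRCm38 were used. The sources used here name no counting program, strand setting or annotation: these are not given. The 9 columns of per-sample values in a second table show no genotype and were not used. The titles list 7 Hes1 cKO and 9 control samples, the series text the reverse; the titles were followed. Genes were kept by filterByExpr of edgeR (4.0.16, R 4.3.3, minimum count 10), scaled by TMM and compared by edgeR's quasi-likelihood test without covariates, with Benjamini-Hochberg adjustment over 15615 genes and a threshold of 0.05. Standard errors were derived from the F statistic. Alternatives used DESeq2 (1.42.0), limma-voom (limma 3.58.1), other scalings and filters, covariates and left-out libraries. Within groups, pairs of libraries had a chi-square of 11.8 to 41.0 for each degree of freedom, so none was a repeat run of another. This cannot tell whether the libraries came from separate animals. Exon lengths came from GENCODE M21 (GRCm38). Reads carry no molecular identifiers. The script was tested on simulated data. Members and lists were chosen with earlier results of these data known. Genes were named by a written rule: the family, called genes of the lists, the 3 uncalled pump genes highest per length, the genes most like each member, and their neighbours. Atp6v1c1, Atp6v0d1, Atp6v1b2, Atp6ap1, Atp6ap2, Dmxl1, Car2, Rhbg, Rhcg, Aqp6, Sod1, Prdx1, Txn1, Srxn1 and the ratio genes were added after their values were seen.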

Additional observations from a re-analysis of the deposited data

Results flagged for a closer look

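In 21 genes the 4 control libraries were checked for 1 that stood apart, by the gap to its nearest neighbour as a share of the whole range (limit 0.829); about 1 in 20 groups passes it by chance, and the 3 Hes1 cKO libraries were not tested. No TLDc domain gene passed, the nearest being Tbc1d24, low in control 1 with a share of 0.736. Among the pump genes, Atp6v1b1 was low in control 1, at 108 CPM against 146 to 147 CPM in the other controls, a share of 0.959. Atp6v1g3 was low in the same library, at 39.9 CPM against 54.0 to 56.9 CPM, a share of 0.832. Atp6v1a was high in control 2, at 804 CPM against 660.2 to 665 CPM, a share of 0.967.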

How the results depend on the processing

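Over the 16 alternatives the log2 fold change of Tldc2, described without a test, was 2.15 to 2.46. Tbc1d24 stayed higher (0.37 to 0.60) and not called in all 16. The adrenal covariate, the fit without the 2 libraries highest in adrenal genes and the other gene length were chosen after seeing the data. Oxr1 ranged from -0.14 to 0.065 when 1 library was left out, Ncoa7 from -0.12 to 0.19, Meak7 from -0.21 to 0.039 and Atp6v1f from -0.084 to 0.013; without both libraries highest in adrenal genes Oxr1 was at -0.17, Ncoa7 at -0.23 and Meak7 at -0.20. None of the 4 was called in any fit. The count of called genes was 53. It was 102 (78 higher, 24 lower) without a low-count filter and 130 (96 higher, 34 lower) with DESeq2. With 1 library left out it was 25 to 47, lowest without Hes1 cKO 2, and all of these fits held fewer samples. Without Hes1 cKO 1 it was 27, and without both libraries highest in adrenal genes 37 (29 higher, 8 lower). The V-ATPase lists held 2 to 4 calls with 1 library left out, 2 without Hes1 cKO 1 or 2. The cause of these changes was not tested. Tldc2 rests on 626 to 1012 reads a library in the mutants and 119 to 181 in the controls, Meak7 and Tbc1d24 on 178 to 449. No paired analysis was possible because no number in the column names is shared by a mutant and a control column.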

Other observations

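Libraries with high and low Xist, a transcript of female cells, were read apart, since both sexes are listed for each group; no sex was assigned. Tldc2 was at 6.83 and 7.26 CPM in the controls with low Xist and at 8.89 and 9.88 CPM in those with high Xist. The Hes1 cKO to control ratio of Tldc2 was 6.36 in the 4 libraries with low Xist and 3.92 in the 3 with high Xist, of which 1 was a mutant. For Tbc1d24 these ratios were 1.49 and 1.42. Ncoa7 was at 73.8 to 103 CPM in the 4 libraries with low Xist and at 111 to 123 CPM in the 3 with high Xist, across both groups. With Xist as a covariate the log2 fold change of Tldc2 was 2.39. These differences between Xist levels were not tested.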
